A study of Mus musculus with 9 samples.

Results

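The strain ratio of gene expression in whole brain, SJL/J over C57BL/6J, was read from 3 of the 9 arrays of the study, the arrays titled brain with replicate numbers 1 to 3. All 16874 probes that carried a single gene symbol (15096 genes), of the 23040 probes on the array, were taken. Both strains are inbred laboratory mice, and each array set RNA pooled from 5 male SJL/J mice (Alexa Fluor 647) against RNA pooled from 5 male C57BL/6J mice (Alexa Fluor 555), all aged 8 weeks; each labelling used 20 ug of RNA. The other 6 arrays compared kidney and liver of the same strains in the same way. Within a tissue the same 2 pools were hybridised 3 times with the dyes never swapped, so the spread below (SD, n = 3 arrays) and every p-value measure repeat hybridisation and labelling and not the variation between mice. Channel 1 of the kidney and liver arrays carries the tissue label brain, and their titles were followed.

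Inbred strains are fixed for different alleles at many loci, and an allele that alters transcription or the stability of a transcript appears on such an array as a ratio away from 0. A sequence difference under a probe, or a dye that favours a probe, adds to the same ratio. The design holds no dye swap that would separate the part of the dye, and a swap would not separate a sequence difference. SJL/J is known as a strain that is susceptible to autoimmune demyelination of the central nervous system. C57BL/6J is the strain of the mouse reference genome. Below, a log2 ratio above 0 means more signal from the SJL/J brain pool, with the log base and the direction inferred as described under the processing. The values are ratios and not levels, so a gene with little or no transcript in brain cannot be told from an abundant one, the brain label could not be checked against marker levels, and fewer cells of a type cannot be told apart from less RNA per cell.

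Brain replicate 3 stood apart from replicates 1 and 2. Across the 14692 single-symbol probes whose number was not a multiple of 8, the log2 ratios of replicates 1 and 2 had a Pearson r of 0.701. Replicate 3 had an r of 0.214 with replicate 1 and 0.313 with replicate 2. Its r with the 3 kidney arrays lay between 0.316 and 0.382, and with the 3 liver arrays between 0.01 and 0.053. The kidney arrays correlated with each other at 0.672 to 0.676 and the liver arrays at 0.723 to 0.766. These are correlations across probes that share an array, its dyes and its base composition, and probes are not independent replicates. The residual SD was 0.252, 0.233 and 0.318 on brain replicates 1, 2 and 3, and 0.201 to 0.213 on the other arrays. What set replicate 3 apart was not tested, and results are given with and without it.

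**Figure D1:**
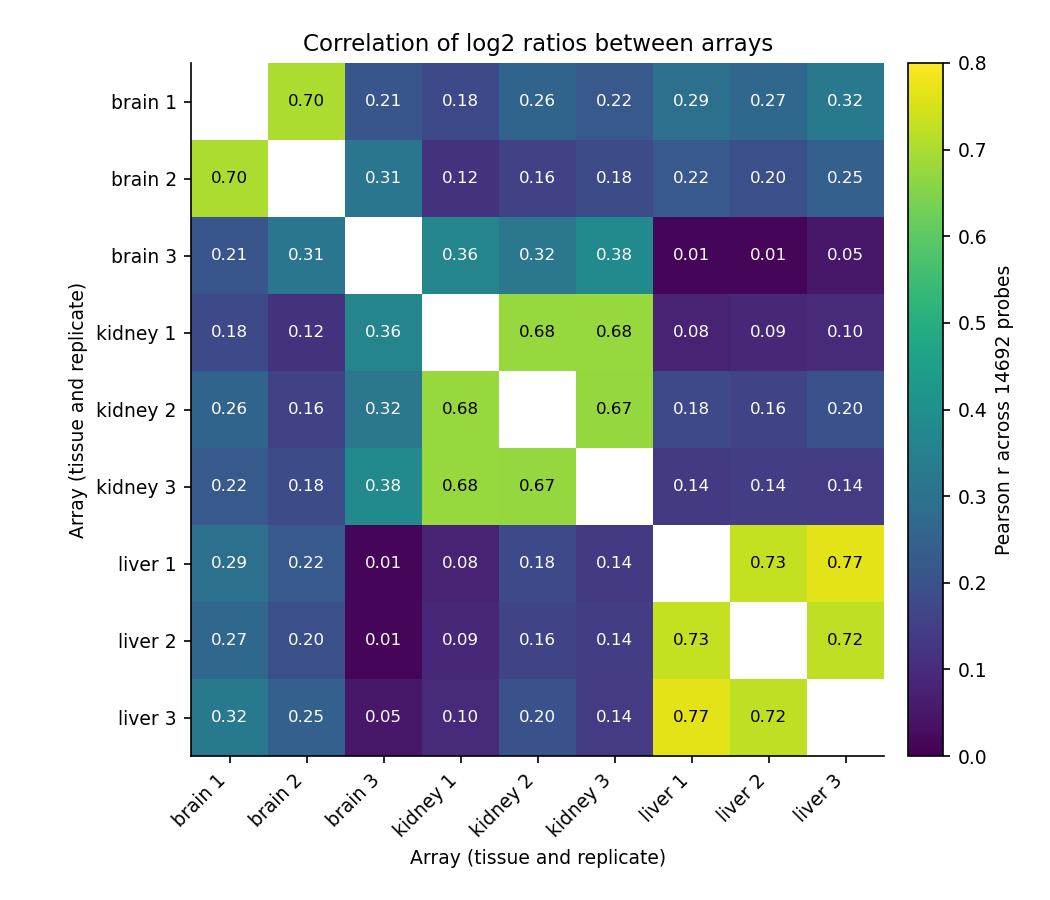
Pearson r of the log2 ratios between each pair of the 9 arrays, across 14692 single-symbol probes away from multiples of 8, with arrays on both axes. Brain replicates 1 and 2 share an r of 0.701, whereas brain replicate 3 lies at 0.214 and 0.313 with them and at 0.316 to 0.382 with the kidney arrays.

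Probes whose number is a multiple of 8 are given apart, because their ratios ran low on the arrays. At the remaining 14692 probes, the SJL/J pool was higher for 213 (1.45%) and lower for 199 (1.35%), by limma's moderated test of the mean of 3 brain arrays against 0, with Benjamini-Hochberg adjustment over all 23040 probes and a threshold of 0.05. These 412 probes named 407 genes, and 0 genes were called in both directions. Counted by gene, 1.58% of 13407 genes were higher and 1.45% were lower. A difference of at least 2-fold was reached by 45 of the higher and 58 of the lower probes, the smallest called mean was 0.52 on the log2 scale, and the median size was 0.77. The higher calls reached further, since 10 probes were at least 4-fold higher and 1 was at least 4-fold lower.

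The counts moved with the array that was left out. Without replicate 3, 790 probes were higher and 646 were lower, or 5.83% and 4.71% of the genes. Without replicate 1 the counts were 34 and 41, and without replicate 2 they were 76 and 69. Of the 412 probes called with 3 arrays, 400 were also called with replicates 1 and 2 alone and 12 were not. Replicate 3 gave the smallest ratio of the 3 arrays for 189 of the 412, against 113 for replicate 1 and 110 for replicate 2. Of the 1436 probes called with replicates 1 and 2 alone, replicate 3 had the same sign at 1035 (72.1%). Its median there, taken in the direction of the other arrays, was 0.21 against 0.72 for the mean of replicates 1 and 2. The kidney mean at the same probes had a median of 0.13 in that direction.

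**Figure D2:**
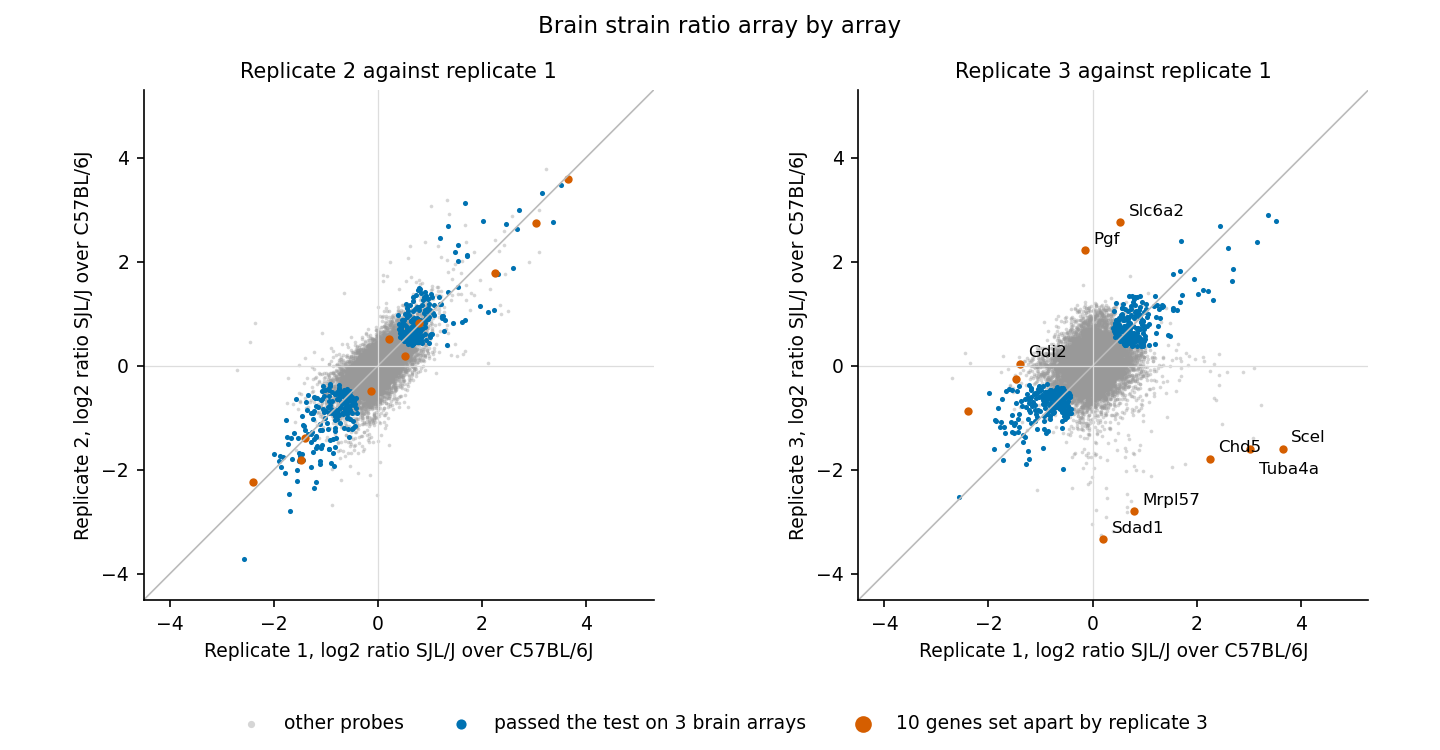
Log2 ratio SJL/J over C57BL/6J of brain replicate 2 (left) and replicate 3 (right) against replicate 1, 1 point per probe (14692 probes), with the grey line at equality. Replicates 1 and 2 follow the line (r of 0.701), replicate 3 does so less (r of 0.214), and probes such as Scel and Chd5 lie above 3 or near 2 on replicate 1 and below -1.5 on replicate 3.

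The gene with the highest brain ratio was Satl1, named for its likeness to spermidine and spermine acetyltransferases. Its log2 ratio was 3.52, 3.47 and 2.79 on replicates 1, 2 and 3, a mean of 3.26 ± 0.41 (SD, n = 3), or 9.57-fold higher in SJL/J (limma adjusted p = 0.00118). It was high in kidney (1.96 ± 0.04) and liver (3.07 ± 0.30) as well. Olfr76, an odorant receptor gene, followed with 3.37, 2.76 and 2.90, an 8.04-fold difference (mean 3.01 ± 0.32, adjusted p = 0.00118). Unlike Satl1 it lay near 0 in kidney (0.31 ± 0.13) and liver (-0.10 ± 0.33). Both genes were at or above 2.76 on every brain array.

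Cap1, which encodes an actin regulator that binds adenylyl cyclase, had ratios of 3.16, 3.32 and 2.37. Its liver arrays varied widely (1.199 ± 1.16). Chst11, a chondroitin sulfotransferase gene, stood at 2.46, 2.73 and 2.68 at 1 probe, but its other probe had a mean of 0.04 (adjusted p = 0.885). Thbs2, encoding the matrix protein thrombospondin 2, reached 2.67, 2.62 and 1.64 in brain against -0.19 ± 0.10 in kidney and -0.09 ± 0.05 in liver. Rfc3, a subunit of the clamp loader of DNA replication, had 1.68, 3.13 and 1.82, the widest spread among the 10 highest (SD 0.80). Hba-x, the embryonic zeta globin gene, had 1.71, 2.11 and 2.40, while a probe for it at a multiple of 8 had a mean of 0.16 (adjusted p = 0.469). Pard3b, a cell polarity gene, had 2.03, 2.79 and 1.38 at its called probe and a mean of -0.12 at another (adjusted p = 0.544). The Pard3b call was lost without replicate 1 (0.0561). The genes named from several probes thus gave a high ratio at a single probe each, and which transcript each probe reads was not tested.

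The lowest brain ratio belonged to 4933416M06Rik, a gene known by its clone name, at -2.57, -3.72 and -2.52 (mean -2.94 ± 0.68, 7.66-fold lower in SJL/J, adjusted p = 0.00248). Smok2a, a sperm motility kinase gene, followed with -1.68, -2.79 and -1.30. Erlin1, encoding a protein of lipid rafts in the endoplasmic reticulum, had -2.40 and -2.24 on replicates 1 and 2 but -0.87 on replicate 3. Atp4b, the beta subunit of the gastric proton pump, had -1.70, -2.47 and -1.18. In all 4, replicate 3 was the array nearest to 0. Without replicate 1, the calls of Smok2a (adjusted p = 0.0666), Erlin1 (0.116) and Atp4b (0.0658) were lost. Pilra, an inhibitory receptor of myeloid cells, had a mean of -1.67 ± 0.46, and Pttg1, which encodes securin, had -1.62 ± 0.48. Pttg1 was lower in liver too (-2.08 ± 0.23). Atp8a1, a flippase that moves phosphatidylserine across membranes, had -1.55, -2.005 and -1.28 (mean -1.61 ± 0.37, adjusted p = 0.00427). 4930573C08Rik (-1.77 ± 0.16) and Slc36a1os (-1.65 ± 0.14) varied least among the lowest 10 together with Stk25 (-1.68 ± 0.16).

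**Figure D3:**
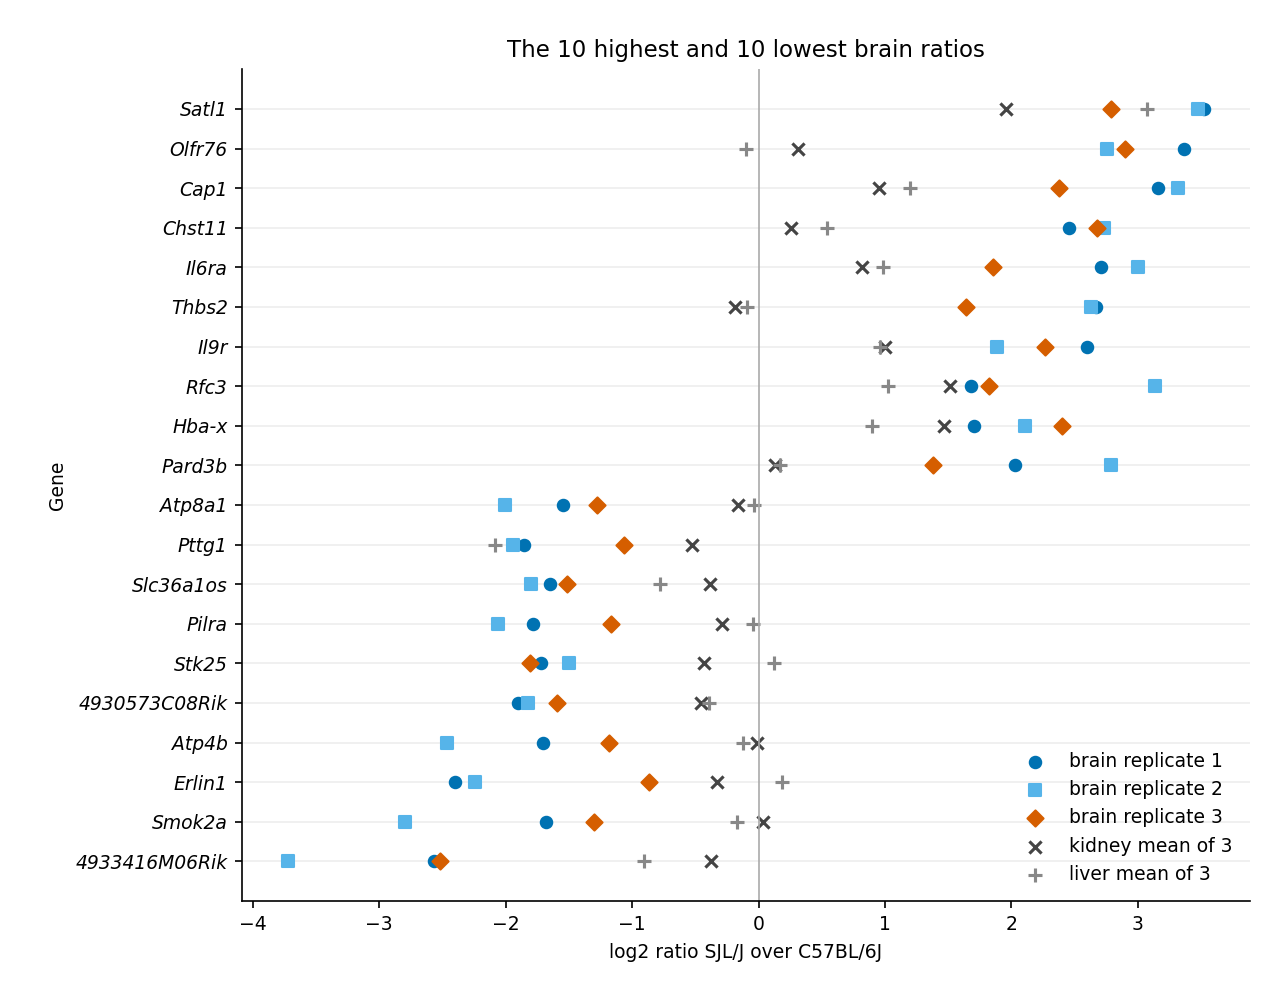
Log2 ratio SJL/J over C57BL/6J of the 10 highest and 10 lowest called genes on each brain array (coloured points), with the means of 3 kidney arrays (x) and 3 liver arrays (+). All 3 brain points lie on 1 side of 0 for each gene, and kidney and liver lie within 0.31 of 0 for Olfr76 but at 1.96 and 3.07 for Satl1.

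Stk25, a serine and threonine kinase gene, was read by 2 probes that were both lower. The first had -1.72, -1.50 and -1.81 (adjusted p = 0.0017) and the second -1.19, -1.58 and -0.88 (adjusted p = 0.00916, and 0.0654 without replicate 1). Ebna1bp2, which takes part in ribosome assembly in the nucleolus, was higher at both of its probes, with means of 0.74 ± 0.15 and 0.80 ± 0.36 (adjusted p = 0.0206 and 0.0419). Both Ebna1bp2 calls were lost without replicate 1 (adjusted p = 0.132 and 0.216) and without replicate 2 (0.124 and 0.18). The second was also lost with the medians of the probe numbering removed (0.0752) and with multiples of 8 left out (0.0515). These were the only genes, of 864 with 2 or more probes away from multiples of 8, whose probes were all called the same way on 3 brain arrays. At least 1 probe was called for 59 of the 864, and in 26 of the 59 all probes had the same sign. A fit of all 9 arrays with a shared spread called all probes of 14 genes the same way. Among these was Thy1, a surface glycoprotein of neurons and T cells, with means of 0.51 ± 0.16 and 0.46 ± 0.29 in brain. Tfrc, the transferrin receptor, had -0.55 ± 0.42 and -0.50 ± 0.31, and Sfrp1, a secreted Wnt antagonist, 0.48 ± 0.31 and 0.52 ± 0.20. None of these 3 passed on the brain arrays alone (adjusted p between 0.067 and 0.129).

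Acetylcholine is made in neurons from choline that a transporter brings back into the terminal, and a second transporter loads it into vesicles. The 2 transporter genes differed in opposite directions. Slc5a7, the choline transporter, was lower in SJL/J at -0.94, -0.58 and -1.06 (mean -0.86 ± 0.25, adjusted p = 0.0197). Slc18a3, the vesicular acetylcholine transporter, was higher at 0.58, 0.65 and 1.18 (mean 0.80 ± 0.33, adjusted p = 0.0361). Both genes lay on the same side of 0 in kidney (-0.65 and 0.88) and liver (-0.31 and 0.45). The serotonin receptor gene Htr2b was lower at -0.50, -0.61 and -0.57. Of 43 measured genes of monoamine and acetylcholine signalling, 1 was higher and 2 were lower, against 1.58% and 1.45% of all genes, and their median ratio was 0.00 against 0.03 over all genes. Drd2, the dopamine receptor D2, had -0.33, -0.91 and -0.39 (adjusted p = 0.096). The 3 calls were lost when line and column medians of the probe numbering were removed (adjusted p = 0.0501 for Slc5a7, 0.147 for Slc18a3 and 0.066 for Htr2b). Without replicate 1 they also failed, at adjusted p of 0.13, 0.108 and 0.177, and without replicate 2 Slc18a3 (0.0736) and Htr2b (0.244) did. Htr2b also failed with array weights (0.063) and among single-symbol probes alone (0.0553).

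Neuropeptides and neurotrophins are secreted signals of neurons. Of 53 measured genes of the neuropeptide list, 3 were higher in SJL/J brain and 0 were lower, against 1.58% and 1.45% of all genes. Cartpt, the precursor of a peptide that reduces feeding, had 0.92, 1.35 and 0.85 (mean 1.04 ± 0.27, 2.06-fold, adjusted p = 0.0108). In kidney (-0.22 ± 0.08) and liver (-0.26 ± 0.08) it lay slightly below 0. The difference of brain from each was called (1.26, adjusted p = 0.00466, and 1.30, adjusted p = 0.000671). Bdnf, brain-derived neurotrophic factor, had 0.47, 0.55 and 0.64 (adjusted p = 0.0448). Ntrk3, the receptor of neurotrophin 3, had 1.33, 0.40 and 1.13 (adjusted p = 0.0438), while a probe at a multiple of 8 had a mean of -0.20. The Ntrk3 call was lost without replicate 1 (0.211), without replicate 3 (0.0543), with the medians of the probe numbering removed (0.0913) and with multiples of 8 left out (0.0545). The Cartpt call was lost without replicate 1 (0.0613). Avp, vasopressin, had 0.39, 0.52 and 0.86 (adjusted p = 0.0602). Pomc, the precursor of melanocortins and an endorphin, had 0.06, -0.07 and 0.07, and Sst, somatostatin, 0.11, 0.03 and 0.31.

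Bdnf was also counted among the immediate early genes, which neurons transcribe within minutes of activity. In that list 3 of 28 measured genes were higher and 0 lower, against 1.58% and 1.45% of all genes, and the list median was -0.01. Per1, a gene of the circadian clock, had 0.61, 1.17 and 0.52 (mean 0.77 ± 0.35, adjusted p = 0.0467). Gadd45b, a stress-induced gene, had 0.84, 0.72 and 0.53 (mean 0.70 ± 0.16, adjusted p = 0.0265). The classical members Fos (-0.44, -0.49 and -0.34), Arc (-0.59, -0.18 and 0.32) and Egr1 (0.15, 0.63 and -0.19) did not pass, and Jun had 0.73, 0.77 and 0.34 (adjusted p = 0.0533). The Per1 and Bdnf calls lie close to the threshold. Both calls were lost without replicate 1 (adjusted p = 0.158 and 0.176), without replicate 2 (0.209 and 0.233), with the medians of the probe numbering removed (0.0598 and 0.0805), with multiples of 8 left out (0.0563 and 0.0522) and among single-symbol probes alone (0.0539 and 0.0594). Per1 was lost with centring on these as well (0.0514). Gadd45b was lost without replicate 1 or 2 (0.168 and 0.134). Of 16 measured clock genes Per1 alone was called on 3 arrays. Per3 had 0.46, 0.62 and 0.17, Dbp 0.18, 0.40 and 0.99, and Arntl -0.01, -0.71 and 0.08. The clock list had a median of 0.14, with medians of 0.08, 0.28 and 0.09 on replicates 1, 2 and 3.

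Cartpt, Per1 and Bdnf are known to respond to cyclic AMP through a motif near their start sites, so their promoters are shown as a record of where that motif lies in the reference strain. Each is a window of 300 bases around a RefSeq start site of the build GRCm38.p6, on the strand of the gene, written 5′ to 3′ with the motif TGACGT, or its reverse ACGTCA, in capitals.
Cartpt, chr13:99900634-99900933, minus strand: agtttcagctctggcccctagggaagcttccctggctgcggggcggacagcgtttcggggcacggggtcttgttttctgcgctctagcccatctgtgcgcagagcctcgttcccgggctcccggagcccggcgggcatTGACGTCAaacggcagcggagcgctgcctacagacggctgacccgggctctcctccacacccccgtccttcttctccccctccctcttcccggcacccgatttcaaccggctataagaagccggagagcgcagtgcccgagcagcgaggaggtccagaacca
Per1, chr11:69099902-69100201, plus strand: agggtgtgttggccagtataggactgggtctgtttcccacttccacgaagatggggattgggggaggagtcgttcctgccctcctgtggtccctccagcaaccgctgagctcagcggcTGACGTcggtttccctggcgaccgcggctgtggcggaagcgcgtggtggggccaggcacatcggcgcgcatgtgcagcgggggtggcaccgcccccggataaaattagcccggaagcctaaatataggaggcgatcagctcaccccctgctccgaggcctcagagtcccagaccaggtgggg
Bdnf, chr2:109692186-109692485, plus strand: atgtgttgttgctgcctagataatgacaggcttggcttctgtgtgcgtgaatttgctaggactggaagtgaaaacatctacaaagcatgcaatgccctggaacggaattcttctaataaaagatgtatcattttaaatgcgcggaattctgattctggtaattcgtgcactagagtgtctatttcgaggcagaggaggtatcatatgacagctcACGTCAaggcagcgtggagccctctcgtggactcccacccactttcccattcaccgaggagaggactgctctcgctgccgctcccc
The capitals in Cartpt span the longer palindrome TGACGTCA, which contains the shorter motif. On either strand the shorter motif is present in 2468 of 32851 RefSeq promoters of this length (7.51%), and the palindrome is in 588 (1.79%). The shorter motif was found in 1 of 2 promoters listed for Per1, 1 of 7 for Bdnf, 1 of 1 for Cartpt and 0 of 1 for Gadd45b. A match describes the letters in these windows of C57BL/6J sequence and was not related to the measured ratios.

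Syt6, a synaptotagmin, was higher in SJL/J at 0.67, 0.67 and 0.79 (mean 0.71 ± 0.07, adjusted p = 0.0192), but its other probe had a mean of 0.01. It was the single call among 51 measured genes of synaptic vesicles and SNAREs, and the call was lost without replicate 1 (adjusted p = 0.113), without replicate 2 (0.0952) and with the medians of the probe numbering removed (0.102). Syt1, the calcium sensor of fast transmitter release, had 1.43 and 1.68 on replicates 1 and 2 and -0.29 on replicate 3. Cplx2, a complexin that clamps the release machinery, had 1.21, 1.33 and 0.15. Without replicate 3, 8 genes of this list were higher and 3 lower, Syt1 and Cplx2 among the higher, against 5.83% and 4.71% of all genes.

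Kcnn3, a calcium-activated potassium channel, was lower at -1.20, -1.36 and -0.64 (mean -1.07 ± 0.38, 2.10-fold, adjusted p = 0.018). Hcn3, a pacemaker channel, was lower at -0.53, -1.03 and -0.72 (mean -0.76 ± 0.25, adjusted p = 0.0302), with a mean of -0.10 at its other probe. They were the 2 calls among 56 measured ion channel genes (1.45% of all genes were lower), and each was lost without replicate 1 or replicate 2 (adjusted p between 0.0557 and 0.164). Hcn2, a related channel, had 1.21 and 1.44 on replicates 1 and 2 and -0.10 on replicate 3. In brain, Kcnn3 and Hcn3 differed from kidney (differences of -0.95 and -0.85) and from liver (-1.09 and -1.002), all called in the fit of 9 arrays.

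None of 35 genes of glutamate signalling and none of 22 of GABA and glycine signalling passed limma's test on 3 arrays at probes away from multiples of 8. At an unadjusted p under 0.05, 5 and 3 did, against 2798 of 13407 genes overall (20.9%). With replicates 1 and 2 alone, 5 and 4 of them passed the adjusted test, where 5.83% of all genes were higher and 4.71% lower. Gria1, an AMPA receptor subunit, had -0.14 and -0.32 on replicates 1 and 2 and -1.87 on replicate 3 at 1 probe, and a mean of 0.13 at the other. Cacng2, an auxiliary subunit of that receptor, had 0.54, 0.60 and 0.42 (adjusted p = 0.0533). Gabrb1, a GABA type A receptor subunit, had -0.57, -0.58 and -0.14, and Gad1, which makes GABA, had 0.29, 0.61 and -0.15. The list medians were 0.01 and 0.03.

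Myelin is made by oligodendrocytes, and Mog, a glycoprotein of its outer surface, was lower in SJL/J at -1.45, -0.97 and -0.48 (mean -0.97 ± 0.48, 1.96-fold, adjusted p = 0.0412). Kidney (-0.06 ± 0.14) and liver (-0.25 ± 0.17) lay nearer to 0. Mog was the only call among 28 measured oligodendrocyte and myelin genes on 3 arrays, where 1.45% of all genes were lower and 1.58% higher. The call was lost without replicate 1 (adjusted p = 0.171) and without replicate 2 (0.0981). It also failed with the medians of the probe numbering removed (0.0555) or multiples of 8 left out (0.0515). Other proteins of the myelin sheath did not pass. Mbp, the basic protein of myelin, had probe means of -0.24, -0.02 and 0.26 on the 3 arrays, Mag had -0.03, 0.38 and 0.02, and Mobp had -0.12, 0.35 and -0.15. Olig1, a transcription factor of the lineage, had -0.86, -0.91 and -0.29 (adjusted p = 0.0608). With replicates 1 and 2 alone, 5 genes of the list were lower (Aspa, Mog, Olig1, Qdpr and Trf) and 1 was higher (Tspan2). Over all genes 4.71% were lower and 5.83% higher with these 2 arrays. At an unadjusted p under 0.05 on 3 arrays, 7 of the 28 genes passed, against 20.9% of all genes. All 7 were lower at 1 probe or more, and Trf, transferrin, was also higher at another of its probes.

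No gene of the lists for neurons (21 measured), astrocytes (22), microglia and macrophages (21), or endothelium, choroid plexus and ependyma (27) passed limma's test on 3 arrays. At an unadjusted p under 0.05, 7, 5, 6 and 2 of them did, against 20.9% of all genes. In the same order of lists, 6, 5, 2 and 1 were higher and 1, 0, 4 and 1 were lower. Gap43, a protein of growing axons, had 0.37, 0.57 and 0.79 (adjusted p = 0.057), and differed from kidney by 1.43 and from liver by 1.02, both called. The Gap43 ratio was below 0 in kidney (-0.86 ± 0.18) and liver (-0.45 ± 0.15), which widened these differences. Gfap, the intermediate filament of astrocytes, had 0.23, 0.29 and 0.38. Slc1a2, their main glutamate transporter, had 0.95 and 1.21 on replicates 1 and 2 and -0.65 on replicate 3, and Cst3, a protease inhibitor, 1.27, 1.12 and -0.05. Tyrobp, an adaptor of microglial receptors, had -0.89, -0.41 and -0.08, and C1qa, a complement component, -0.40, -0.16 and -1.75. The median of 21 microglial genes was -0.16 and -0.13 on replicates 1 and 2 and 0.09 on replicate 3. With replicates 1 and 2 alone, 3 neuronal genes were higher and 0 lower. Of the astrocytic genes 2 were higher (Cst3 and Slc1a2) and 1 was lower (Slc1a3). In the microglial list 1 gene was lower (Tyrobp), and 0 endothelial genes passed. Over all genes 5.83% were higher and 4.71% lower with these 2 arrays.

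Among 12 measured red cell genes Alas2, the first enzyme of haem synthesis in red cells, was higher at 0.45, 0.71 and 1.20 (mean 0.79 ± 0.38, adjusted p = 0.0485), besides Hba-x. In liver Alas2 lay at -1.96 ± 0.35, so the 2 tissues differed by 2.75 (adjusted p = 5.73e-05). Hba-a1, the adult alpha globin, had 0.06, 0.47 and 0.05 in brain. In this list 2 genes were higher and 0 lower, against 1.58% and 1.45% of all genes. At an unadjusted p under 0.05, 4 of the 12 were higher and 1 lower, against 1581 and 1243 of 13407 genes overall. With replicates 1 and 2 alone Tfrc was lower at 1 of its probes (limma adjusted p = 0.0282), where 4.71% of all genes were lower. The Alas2 call was lost without replicate 1 (adjusted p = 0.0908), without replicate 2 (0.121) and with the medians of the probe numbering removed (0.0687). It also failed with multiples of 8 left out (0.0593), among single-symbol probes alone (0.0567) and with centring on them (0.0517).

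Replicate 3 stood apart from the other brain arrays in the genes of protein synthesis and respiration. Cytosolic ribosomal proteins form the translating ribosome, and 55 of them were measured away from multiples of 8. Their median ratio was -0.13 on replicate 1, -0.01 on replicate 2 and 0.645 on replicate 3, and 18, 27 and 52 of the 55 lay above 0. In kidney their median was 0.17 and in liver -0.27. Rpl14 had 0.42, 0.66 and 1.11 (adjusted p = 0.0539) and Rpl13 0.27, 0.61 and 1.07. Subunits of oxidative phosphorylation, the respiratory chain and its ATP synthase, had the same order, with medians of -0.07, -0.04 and 0.31 and with 30, 31 and 55 of 68 above 0. Ndufs1, of complex I, had -1.17, -1.14 and 0.11, and Ndufa6 had 0.23, 0.42 and 1.14. None of these ribosomal or respiratory genes passed limma's test on 3 arrays. An unadjusted p under 0.05 was reached by 9 and 8 of them, against 20.9% of all genes. With replicates 1 and 2 alone 1 ribosomal gene was higher and 4 lower, and 1 respiratory gene was higher and 6 lower. Over all genes 5.83% were higher and 4.71% lower in that test. The neuronal list ran from medians of -0.06 and 0.07 to 0.28 on replicate 3, led there by Stmn3 (0.06, -0.02 and 1.06), Uchl1 (-0.30, 0.00 and 1.04) and Calb2 (-0.14, 0.07 and 0.98). Over all genes the medians were 0.02, 0.03 and 0.04. Markers of kidney epithelium had medians of 0.00, 0.00 and 0.04, and hepatocyte markers -0.01, 0.05 and 0.01. Whether RNA quality, labelling or handling had a part in these shifts was not tested.

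**Figure D4:**
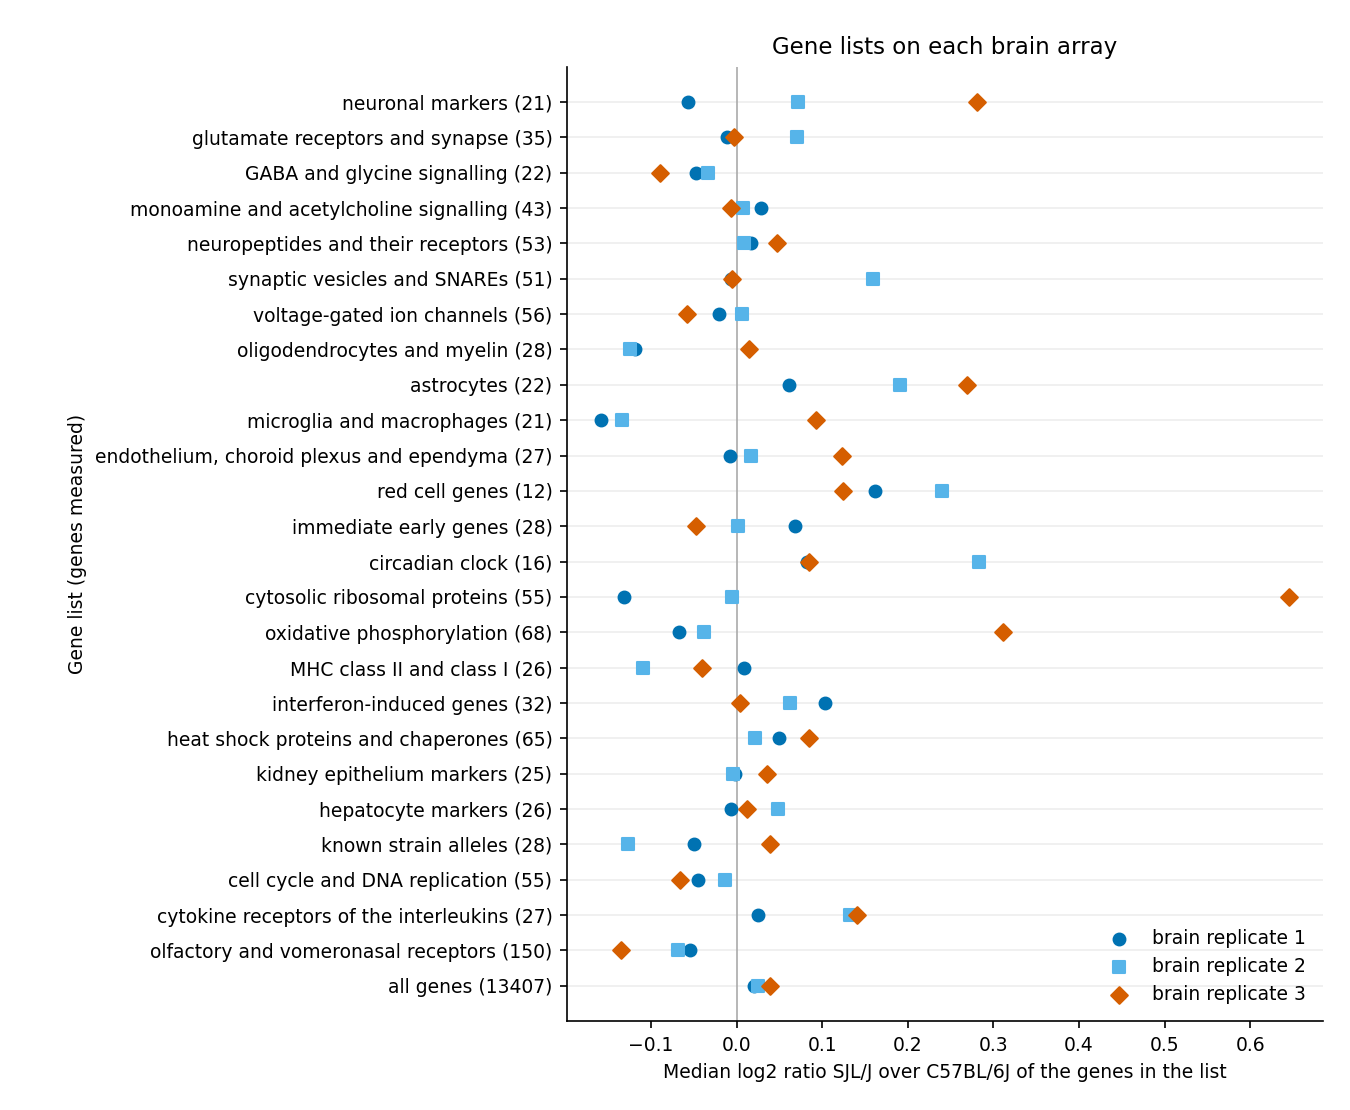
Median log2 ratio SJL/J over C57BL/6J of the genes of each of 25 lists and of all genes, on brain replicates 1, 2 and 3, with the number of measured genes in brackets. Replicate 3 lies at 0.645 for ribosomal proteins and 0.31 for oxidative phosphorylation, where replicates 1 and 2 lie at or below 0.

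Receptors of interleukins gave some of the largest ratios in brain. Il6ra, the binding subunit of the interleukin 6 receptor, had 2.71, 2.998 and 1.85 (mean 2.52 ± 0.60, 5.73-fold, adjusted p = 0.00295). Il9r, the interleukin 9 receptor, had 2.60, 1.89 and 2.27 (mean 2.25 ± 0.36, adjusted p = 0.00169). Il1rl2, the interleukin 36 receptor, had 2.13, 1.04 and 1.45 (mean 1.54 ± 0.55, adjusted p = 0.0112). All 3 were also above 0 in kidney (0.82, 0.997 and 1.25) and liver (0.98, 0.96 and 0.29). These were 3 higher of 27 measured genes of the list, against 1.58% of all genes, and the other 24 did not pass, Il1rap at -1.50, -0.68 and -0.18 being the furthest from 0. The list median was 0.11. All 3 calls held without each replicate in turn and under each other setting tried.

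Genes of antigen presentation and the interferon response were called singly. H2-M2, a non-classical class I gene of the major histocompatibility complex, was lower at -0.51, -0.91 and -0.87 (adjusted p = 0.0262), with -0.75 ± 0.06 in kidney and 0.31 ± 0.18 in liver. H2-T24, another such gene, was higher at 0.53, 0.79 and 0.48 (adjusted p = 0.0445). The other 24 of 26 measured genes did not pass, and genes of this family are near-identical copies whose probes may read each other. Mx1, an antiviral GTPase induced by interferon, was higher at 0.61, 0.64 and 1.09 (mean 0.78 ± 0.27, adjusted p = 0.03), the single call among 32 interferon-induced genes. Stat2, which carries the interferon signal to the nucleus, had 0.45, 0.55 and 0.44 (adjusted p = 0.0602), Isg15 0.08, 0.21 and 0.03, and Ifit1 0.07, -0.10 and -0.15. All 3 calls were lost without replicate 1 or replicate 2 (adjusted p from 0.0621 to 0.282). The H2-T24 call also failed with multiples of 8 left out (0.0526), among single-symbol probes alone (0.0577) and with centring on them (0.0503). Over all genes 1.58% were higher and 1.45% lower on 3 arrays. At an unadjusted p under 0.05, 2 of the 26 genes of antigen presentation were higher and 4 lower. Of the 32 interferon-induced genes 4 were higher and 4 lower, against 1581 and 1243 of 13407 genes overall. With replicates 1 and 2 alone, 2 and 4 of the 26 and 2 and 1 of the 32 were higher and lower. Over all genes 5.83% and 4.71% were.

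Lcn2, lipocalin 2, an acute phase protein that binds bacterial siderophores, was higher at 1.17, 1.33 and 1.15 (mean 1.22 ± 0.10, adjusted p = 0.00341) and kept its call under each setting. Its ratio was larger in liver (3.40 ± 0.52) and near 0 in kidney (-0.21 ± 0.25). Aqp3, a water and glycerol channel listed among the kidney markers, was higher at 0.94, 0.90 and 1.23 (mean 1.02 ± 0.18, adjusted p = 0.00747), close to its kidney ratio (1.07 ± 0.14). Of 25 kidney markers it was the only call and no hepatocyte marker (26 measured, 3 at an unadjusted p under 0.05) was called in brain by limma. Aqp3 and Slc18a3, described above, were read at spots 18297 and 18299, on the same line of 24 probe numbers. The other spots of that line had a median of 0.19 in brain. With line and column medians removed the Aqp3 mean was 0.74 (limma adjusted p = 0.036). Among 65 chaperone genes Hspa2 (mean -0.76 ± 0.32) and Dnajb13 (-0.75 ± 0.14) were lower and none higher, against 1.45% and 1.58% of all genes. At an unadjusted p under 0.05, 11 of the 65 were higher and 6 lower, against 1581 and 1243 of 13407 genes overall. The median of the chaperone list was 0.08. Hspa2 and Dnajb13 are chaperones known from sperm development. Neither held without replicate 1 (adjusted p = 0.184 and 0.13), without replicate 2 (0.197 and 0.117) or with the medians of the probe numbering removed (0.0527 and 0.0619).

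Of 55 genes of the cell cycle and DNA replication, 4 were lower and 1, Rfc3, was higher, against 1.45% and 1.58% of all genes. Smc3, a ring subunit of cohesin, had -1.25, -1.03 and -1.65 (mean -1.31 ± 0.31, adjusted p = 0.0063), and lay at -1.80 ± 0.12 in kidney. Tk1, thymidine kinase, had -0.59, -0.75 and -0.90 (adjusted p = 0.0207), and Cdc20, an activator of the anaphase-promoting complex, had a mean of -0.70. Pttg1 completes the 4. The Tk1 call was lost without replicate 1 (adjusted p = 0.0827) and without replicate 2 (0.0985), and the Pttg1 call without replicate 1 (0.0542). Cenpa, the histone of centromeres, did not pass, at 0.65, 0.03 and -2.71. The list median was -0.08.

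Of 150 measured olfactory and vomeronasal receptor genes, 5 were higher and 4 lower, against 1.58% and 1.45% of all genes, and the list median was -0.07. At an unadjusted p under 0.05, 10 were higher and 33 lower, against 1581 and 1243 of 13407 genes overall. After Olfr76 came Olfr139 (1.54, 1.51 and 1.10, with a mean of -0.18 at its other probe), Vmn2r10 (1.34, 1.42 and 1.16) and Olfr61 (1.04, 0.62 and 0.94, adjusted p = 0.116 without replicate 1). Each lay between -0.10 and 0.19 in kidney and liver. The 4 lower genes were Olfr155, Olfr68, Vmn1r11 and Vmn1r62. Of the 150 genes, 26 were above 0 and 53 below 0 on all 3 brain arrays, against 3493 and 2546 of 13407 genes overall. Genes of these families are numerous near copies, so the receptor that a probe reads is uncertain.

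Several genes are known to carry alleles that differ between inbred strains. C57BL/6J lacks part of Nnt, which encodes a mitochondrial transhydrogenase, and Nnt had 0.25, 0.51 and 1.06 in brain (mean 0.61 ± 0.42, adjusted p = 0.103, and 0.0445 in the fit of 9 arrays). C57BL/6J also carries a deletion in an intron of Gabra2, a subunit of the GABA type A receptor, that is known to lower its transcript in brain. At the Gabra2 probe whose number is a multiple of 8, the ratios were 0.94, 1.12 and 1.06 (mean 1.04 ± 0.09, 2.06-fold higher in SJL/J, adjusted p = 0.0054). At the other Gabra2 probe they were -0.07, 0.21 and 0.05 (adjusted p = 0.772). The first probe read -0.84 ± 0.14 in kidney and -0.21 ± 0.19 in liver, and brain differed from them by 1.88 (adjusted p = 0.00045) and 1.25 (adjusted p = 0.00056). SJL/J carries a Dysf allele that causes muscular dystrophy, a Pde6b allele that causes loss of rods and an albino Tyr allele. In brain, Dysf had means of -0.03 and 0.32 at its 2 probes, Pde6b -0.35 ± 0.12 and Tyr -0.20 ± 0.05, and none passed. Tlr5, the flagellin receptor, had -1.19, -0.93 and -1.05 (adjusted p = 0.00578) at a multiple of 8. Of the 28 genes of this list measured elsewhere, Mx1 alone was called, and the median was -0.03.

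At the 2182 single-symbol probes whose number is a multiple of 8, 12 were higher (0.55%) and 270 were lower (12.4%). Their median ratio was -0.29, -0.14 and -0.12 on replicates 1, 2 and 3 against 0.02, 0.02 and 0.03 elsewhere, and it was -0.34 in kidney and -0.22 in liver. The low end held 2310030A07Rik (-3.91, -3.91 and -3.09), Cdca4 (-3.52, -2.94 and -2.96), Tube1 (-3.33, -3.25 and -2.69) and 4930556M19Rik (-2.91, -2.61 and -2.76). These 4 were as low in kidney, at -2.75 to -3.85. The 12 higher probes ran against that shift. Besides Gabra2 they included Scg5, a neuroendocrine chaperone of prohormone convertase, at 0.89, 0.92 and 1.60 (mean 1.14 ± 0.40, adjusted p = 0.0163). Scg5 lay at -0.32 ± 0.05 in kidney and -0.87 ± 0.15 in liver, differences of 1.46 and 2.01 (adjusted p = 0.00571 and 0.000178), and its brain call was lost without replicate 1 (0.0593). Rpl29, a ribosomal protein, had 0.53, 0.74 and 1.21 and was lost without replicate 1 (0.0819) or replicate 2 (0.089), and 1 of the many Gapdh spots had 1.40, 1.18 and 1.82.

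**Figure D5:**
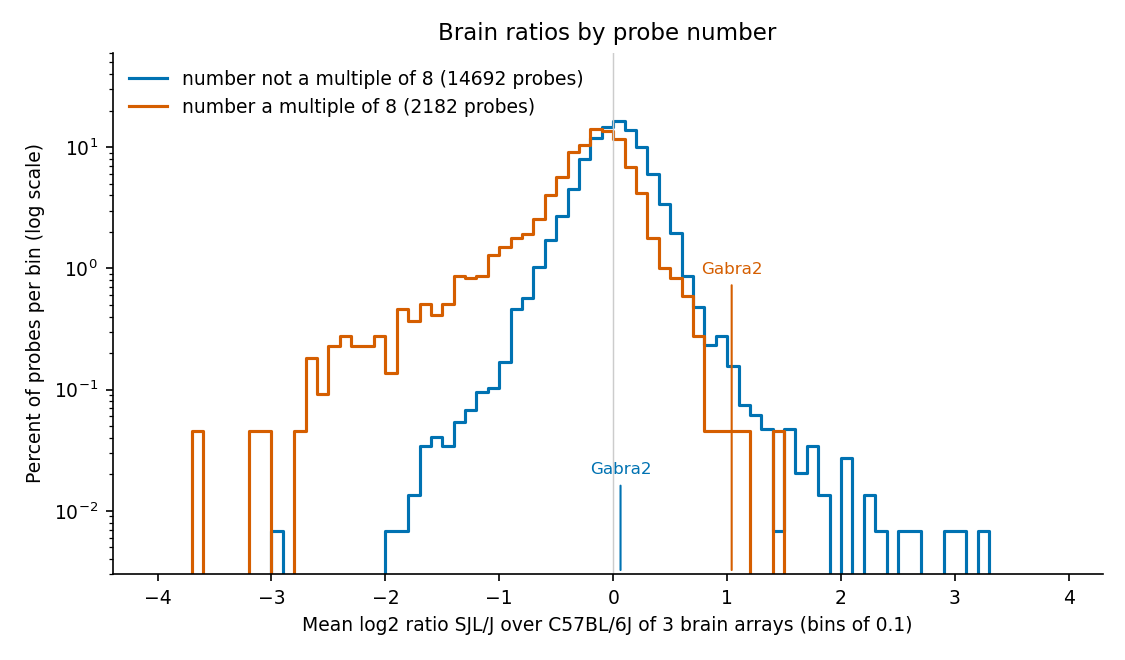
Share of single-symbol probes (percent per bin of 0.1, log scale) by mean log2 ratio of 3 brain arrays, for 14692 probes away from multiples of 8 and 2182 at them. The second group has a longer low tail, reaching -3.64, and the lines mark the Gabra2 probes at 1.04 (multiple of 8) and 0.06.

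Some genes were far from 0 on replicates 1 and 2 and on the opposite side on replicate 3. Scel, encoding sciellin of the epidermal envelope, had 3.66, 3.58 and -1.59, and Tuba4a, an alpha tubulin, had 3.03, 2.75 and -1.59 at 1 of its probes. At these probes kidney lay at -1.38 ± 1.02 and -1.27 ± 1.08, and liver at 4.62 ± 0.44 and 3.68 ± 0.46. Replicate 3 was thus on the kidney side for both genes. Chd5, a chromatin remodeller of neurons, had 2.26, 1.78 and -1.78 with kidney and liver at -0.25 and 0.36. For Sdad1 (0.21, 0.51 and -3.33) and Mrpl57 (0.80, 0.82 and -2.79) no other array group lay near replicate 3. In the other direction Slc6a2, the noradrenaline transporter, had 0.53, 0.18 and 2.76 at 1 probe, while its other probes had -0.21 and 0.13 on replicate 3 (means of -0.29 and -0.10). Pgf, placental growth factor, had -0.14, -0.48 and 2.22. Gdi2, a regulator of Rab proteins, had -1.39, -1.38 and 0.04, and Serpinc1, antithrombin, -1.48, -1.81 and -0.25. Erlin1, described above, was the remaining one of the 10. Over all 14692 probes replicate 3 was nearer to the kidney mean than to the mean of brain replicates 1 and 2 at 54.2%. At the 666 probes where brain and kidney were called different, a set that replicate 3 helped to choose, it was so at 80.

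The brain calls were compared with the other tissues at the same probes. The kidney mean had the sign of the brain mean at 334 of the 412 called probes (81.1%) and the liver mean at 315 (76.5%), against 63.0% and 60.3% over all 14692 probes. In the direction of the brain call the median was 0.28 in kidney and 0.24 in liver. The same probe and dye are read in each tissue, and their part in the shared sign was not tested. Brain exceeded kidney at 229 probes (1.56%) and fell below it at 437 (2.97%), and against liver the counts were 753 (5.13%) and 663 (4.51%), in limma's fit of 9 arrays. The 2 comparisons share the brain arrays. Without brain replicate 3 the kidney counts were 865 and 1135, without replicate 1 they were 114 and 241, and without replicate 2 they were 42 and 69. Against liver, they ran from 423 to 911 and from 393 to 722 with 1 brain array left out. Of the 412 brain calls, 232 differed from at least 1 of the tissues and 98 from both. The 412 were chosen for a brain mean away from 0, and the same brain arrays enter both differences. These counts thus do not show that a call is particular to brain, and the shares over all probes are those above for each tissue.

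Opposite ratios in brain and another tissue were found for a few named genes. Gp2, a glycoprotein of secretory granules and of intestinal M cells, had -1.29, -1.46 and -0.64 in brain (mean -1.13 ± 0.43) and 3.79 ± 0.25 in liver. Its brain call was lost without replicate 1 (adjusted p = 0.125), without replicate 2 (0.0521) and with the medians of the probe numbering removed (0.053). Cttnbp2, a cortactin-binding protein of dendritic spines, had -1.49, -1.73 and -1.11 in brain (adjusted p = 0.00476) and 1.29 ± 0.23 in liver. With the medians of the probe numbering removed, its difference from liver shrank from -2.73 to -0.47 and was no longer called (adjusted p = 0.0559). 4930445E18Rik had -1.56, -2.21 and -0.94 in brain and 0.68 ± 0.43 in kidney, and its brain call was lost without replicate 1 (adjusted p = 0.0952). Aldh1a1, which makes retinoic acid, had -1.99, -1.69 and -0.52 in brain and 1.12 ± 0.85 in kidney, and its brain call was lost without replicate 1 (adjusted p = 0.19), without replicate 2 (0.0876), with the medians of the probe numbering removed (0.0785) and with multiples of 8 left out (0.0515). G6pc, the glucose-6-phosphatase that releases glucose from liver and kidney, had -1.88, -1.72 and -1.03 in brain, 0.30 ± 0.20 in kidney and -2.73 ± 0.13 in liver. Eno3, the muscle enolase, was higher in brain at 1.201, 2.456 and 1.332, with -0.31 ± 0.48 in kidney and a mean of -0.11 at its other brain probe.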

How the data were processed

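Per the series design text and the labels, RNA of 2 strains was compared on 9 two-colour spotted arrays, 3 technical replicates for each of 3 tissues. The deposited table held 1 log2 ratio per spot and array for 23040 spots. Per the submitters' processing notes, the authors used R 2.0.0 and limma; how spots were background-corrected is not given in the sources used here. The log2 base (limma's convention) and the direction SJL/J over C57BL/6J (from titles, dyes and red over green) were inferred and are not stated. Sorted, every array held the same values (median 0.01, range -3.91 to 5.09), so the deposited distributions had been made equal. Spot intensities were not used here, so dim spots were not filtered, and the number of arrays limits the precision.

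Gene symbols came from the platform table, and 16196 probes matched RefSeq (GRCm38.p6). The 3 brain arrays were fitted with limma 3.58.1 in R 4.3.3 (lmFit, eBayes, intercept only, 2 residual degrees of freedom, prior of 4.08 degrees of freedom and SD 0.23). Each mean was tested against 0, two-sided, with Benjamini-Hochberg adjustment over 23040 probes and a threshold of 0.05. Differences between tissues came from a fit of 9 arrays with 1 coefficient per tissue and a spread per probe shared by the tissues. Residual SDs were larger on the brain arrays (0.252, 0.233 and 0.318) than on the others (0.201 to 0.213). P-values of the 9-array fit, for brain or for its differences, can thus understate the error in brain. The script was tested on simulated data. Members and gene lists were chosen with earlier results of these data known, so their counts are descriptions. Genes were named by rule: the 10 highest and 10 lowest called means, 4 and 4 at multiples of 8, genes whose several probes were all called, the 5 probes with the largest gap in each direction between replicate 3 and the others where replicates 1 and 2 differed by less than 0.5, the 5 highest and 5 lowest differences from each tissue, up to 4 called and 2 other members of each list, and known strain alleles. Further list members with well-known roles, Lcn2's paragraph, and the promoters were chosen after values were seen. Several probes of a gene were averaged in lists. Alternatives were other fits, weights, centring, probe sets and each replicate left out. The replicate numbers did not pair the tissues: deviations of same-numbered arrays correlated at -0.076 to 0.028.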

Additional observations from a re-analysis of the deposited data

Results flagged for a closer look

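The brain ratio differed from that of another tissue, by limma's contrast of the 9 arrays, for the genes named by the rule on tissue differences. Above kidney lay Olfr76 (difference of 2.69 on the log2 scale), Thbs2 (2.50), Chst11 (2.36), Cap1 (2.00) and Eno3 (1.98). Below kidney lay 4933416M06Rik (-2.56), Aldh1a1 (-2.52), 4930445E18Rik (-2.25), Smok2a (-1.96) and G6pc (-1.85). Above liver lay Olfr76 (3.11), Alas2 (2.75), Thbs2 (2.40), Chst11 (2.08) and Pard3b (1.90). Below liver lay Gp2 (-4.92), Cttnbp2 (-2.73), Lcn2 (-2.18), 4933416M06Rik (-2.03) and Erlin1 (-2.02). The 2 comparisons share the brain arrays. The Cap1 difference from kidney had an adjusted p of 0.0486 and was lost in 6 settings, at adjusted p of 0.0512 to 0.161. The Aldh1a1 difference from kidney was lost without brain replicate 1 (adjusted p = 0.0678) or replicate 2 (0.0991), and the Cttnbp2 difference from liver fell to -0.47 with line and column medians removed (0.0559).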

How the results depend on the processing

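Away from multiples of 8, where 213 probes were higher and 199 lower, all 9 arrays with a shared spread called 1219 and 1067, with array weights 1424 and 1274, and with the replicate block 987 and 899. Centred on single-symbol probes, the split was 181 and 246. With line and column medians of the probe numbering removed, 111 were higher, and with each brain array left out the counts ran from 34 to 790 higher and from 41 to 646 lower. At multiples of 8 the same fits gave 58 and 567, 83 and 563, and 48 and 520 with the replicate block, 19 and 163 with medians removed, and 2 to 57 and 137 to 351 with an array left out. For brain minus kidney, array weights gave 896 higher and 1251 lower, the replicate block gave 96 and 213, removed medians gave 281 lower, and leaving out a brain array gave 42 to 865 and 69 to 1135. For brain minus liver the last gave 423 to 911 and 393 to 722. With 1 brain array left out, Mrpl57 (-0.39) ran from -0.9985 to 0.81, the latter without replicate 3 (adjusted p = 0.0106). Of 64 named probes called in brain, 31 kept their call in every setting tried, 33 lost it without replicate 1, 21 without replicate 2, 1 without replicate 3 and 14 with medians removed. Causes of these moves were not tested, except that leaving out an array lowers the residual degrees of freedom.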

Other observations

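Of the 6032 probes without a gene name, 679 had a number that is a multiple of 8. Among the other 5353, 601 were higher in SJL/J brain and 98 lower, 13.1% of them against 2.80% of the single-symbol probes away from multiples of 8. At least 2-fold were 490 of the higher and 39 of the lower. What these probes read is not given in the sources used here.

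With 407 of 13407 genes called, 12 pairs of called genes were neighbours. Of 12971 adjacent pairs of measured genes in the order of GRCm38.p6, 7 pairs were both called in the same direction and 5 in opposite ones. Among the 7 was the pair of Utrn, the dystrophin relative utrophin, at 0.91, 0.89 and 0.98, and Stx11, a syntaxin of immune cells, at 0.89, 1.02 and 0.94, from spots 11332 numbers apart. A further Utrn probe had a mean of 0.01. Bdnf and Kif18a (mean 0.57), a kinesin gene, were another of the 7.

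Gnb1, a beta subunit of heterotrimeric G proteins, had 1.72, 2.13 and 1.36 in brain (mean 1.74 ± 0.39, adjusted p = 0.00364), and its pseudogene Gnb1-ps2 had 1.23, 0.96 and 1.17. Both were noticed after their values were seen, and near-identical sequences may be read by either probe.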
